A study of Mus musculus with 8 samples.

Results

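The keratin genes of types I and II were examined across 4 mouse models of endometrial cancer. They were taken as every gene symbol in the table of counts made of Krt and a number, with or without a final letter, which gave 52 of the 24419 symbols. Of these, 28 are of type I and 24 of type II. They were further sorted by where the proteins are known to be used, into 6 simple keratins, 4 basal stratified keratins, 12 suprabasal keratins, 24 hair keratins and 6 other epithelial keratins.

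Keratins are the intermediate filament proteins of epithelial cells. A filament is built from an acidic type I keratin paired with a basic type II keratin, so the partners of a pair are usually made together. Simple epithelia such as the glandular lining of the uterus use Krt8 with Krt18, together with Krt7 and Krt19, whereas stratified squamous epithelia use Krt5 with Krt14 in their basal layer and exchange them for other pairs in the layers above. Krt1 with Krt10 belongs to the upper layers of epidermis, Krt4 with Krt13 to the upper layers of internal mucosae, and Krt6a and Krt6b with Krt16 are induced by injury and in fast-growing squamous tissue. The hair keratins build the hard shaft of the hair and the sheaths around it.

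The models were made from uterus organoids of female CAG-Cas9-EGFP mice, in which Cas9 is driven by a ubiquitous promoter, that were edited and transplanted into the left uterus of 8-week-old female nude mice. The edits of all 4 models included a guide RNA against Trp53, so no group was without engineered changes. TPM also overexpressed Myc, TPMCa carried Myc and a mutant Pik3ca cDNA, TPMR1 carried Myc and a guide RNA against Pik3r1, and TPK had no introduced Myc. Each model had 2 libraries of polyadenylated RNA, which the labels describe as tumor organoids of nude mice, TPMCa and TPMR1 being written there as TPMPik3ca and TPMPik3r1, while tumor tissue, collected roughly 2 months after the organoids were transplanted, is what the study's methods describe. The labels name no animal, while the study's figure legends count a mouse for each library, so the spread between replicates is taken here as that between mice.

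The libraries held between 15748396 and 26943611 counts. Levels are given as counts per 1e6 counts (CPM) of the library size scaled by TMM, a normalization in edgeR. A count of 3 was taken as the floor of detection, which stood at 0.116 to 0.198 CPM and covers counting error only. A fold given as at least a value is the mean CPM of the higher model over the mean floor of the lower. It is a bound for the mean and not for each library, since a mean can rest mostly on 1 replicate. Differences were tested by the quasi-likelihood test of edgeR across 15875 genes, with p-values adjusted by the Benjamini-Hochberg method over all of them, and a gene was called at an adjusted p under 0.05. The SE beside a log2 fold change is the size of that change over the square root of the F statistic of the test. It was derived from the test and not estimated apart from it. Of the 52 keratins, 31 passed the filter on low counts. Because a keratin high in 1 model could pass through that model alone, counts over the members tested are descriptions. The 21 untested keratins were 17 hair keratins, Krt2, Krt9, Krt24 and Krt222, whose highest count in any library was 28, of Krt9, a keratin of palm and sole skin.

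The libraries fell far apart in how much of their RNA was keratin. Keratins took 3.04 and 0.869% of the counts in TPM replicates 1 and 2, and 3.45 and 2.55% in TPK. In TPMCa they took 0.00778 and 0.00287%, which is 1274 and 478 counts, and in TPMR1 0.00109 and 0.00355%, which is 294 and 589 counts. The 4 TPM and TPK libraries therefore lay above every TPMCa and TPMR1 library in summed keratin level, with 8087 to 37710 CPM against 11.4 to 80.7 CPM. Between 18 and 24 keratins had at least 100 counts in a TPM or TPK library, against 0 to 3 in a TPMCa or TPMR1 library.

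The epithelial genes that are not keratins were split in the same way. The summed level of 8 epithelial genes, Epcam, Cdh1, Cldn4, Cldn7, Elf3, Esrp1, Rab25 and Prss8, was 2716 and 2357 CPM in TPM and 2575 and 2674 CPM in TPK. It was 30.5 and 12.0 CPM in TPMCa and 3.21 and 3.61 CPM in TPMR1, and Esrp1, a splicing factor of epithelial cells, was at 0 in both TPMR1 libraries. All 8 genes were called lower in TPMR1 than in TPM, beside 4.5% of all genes tested, and 7 of 8 in TPMCa, beside 3.02%. In TPMCa, Cdh1, the adhesion molecule of epithelial junctions, kept 110 and 96 counts and Epcam 79 and 56. In TPMR1, Cdh1 had 7 and 9 counts and Epcam 21 and 7. In bulk RNA, fewer cells of a type and less RNA per cell cannot be told apart, and this holds for every keratin difference given here.

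Markers of other cell types were present in all models. The summed level of 6 fibroblast genes ran from 2407 to 9921 CPM in TPM and TPK and from 876 to 16595 CPM in TPMCa and TPMR1. The 4 endothelial genes ran from 48.3 to 136 CPM and from 143 to 595 CPM, and the 4 macrophage genes from 357 to 2146 CPM and from 171 to 3378 CPM, in the same order. The 7 gonadal and steroidogenic genes, among them Cyp11a1, stood at 5005 and 449 CPM in TPMR1 against 12.0 to 28.4 CPM in the other models, Fshr being at 0 in every library. The 4 mesothelial genes, which mark a lining that itself uses simple keratins, lay between 7.51 and 85.0 CPM over all libraries. The 4 neutrophil genes lay between 13.9 and 2138 CPM and the 4 smooth muscle genes between 27.7 and 598 CPM. No gene of the fibroblast, endothelial, macrophage, mesothelial, neutrophil or smooth muscle lists was called in any comparison by edgeR, and 1 of 6 gonadal genes tested was called higher in TPMR1 than in TPM. The part of these cell types in the keratin differences was not tested.

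**Figure D1:**
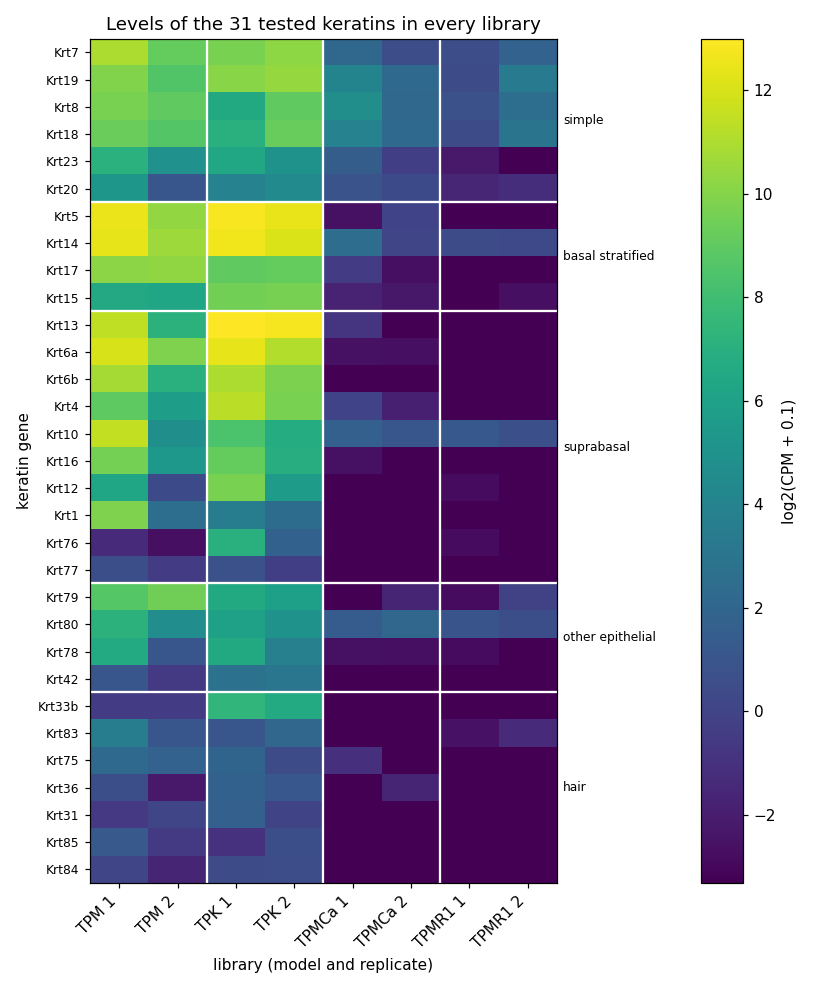
Each cell shows log2(CPM + 0.1) of 1 tested keratin (rows, grouped by class) in 1 of the 8 libraries (columns, 2 per model). Most of the 31 rows are brighter in TPM and TPK than in TPMCa and TPMR1, where Krt7, Krt8, Krt18, Krt19, Krt20, Krt14, Krt10 and Krt80 keep a weak signal in all 4 libraries. Several hair keratins and Krt76 are dim in TPM too, and Krt33b is bright in TPK only.

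Both additions to TPM were compared with TPM to ask how keratins differed with an added change in the PI3K pathway. Of the 31 keratins tested, 13 were called lower in TPMCa than in TPM and 0 higher, beside 3.02% of all 15875 genes called lower and 0.466% called higher. In TPMR1, 17 were called lower and 0 higher, beside 4.5% of all genes called lower and 1.08% called higher. The 2 comparisons share the TPM libraries. Every keratin tested had a lower mean in TPMCa and in TPMR1 than in TPM, and both libraries lay below both TPM libraries for 30 of 31 in TPMCa, all but Krt36, and 31 of 31 in TPMR1, where 32.2 and 28.4% of all genes did so. With keratins of 3 counts or fewer set to their bound, the median log2 fold change over the 31 was -5.99 in TPMCa and -8.17 in TPMR1, against -0.01 and 0.03 for all genes tested.

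The number of calls depended on single libraries. In TPMCa it was 5 without TPM replicate 1, 2 without either TPMCa library and 6 without either TPK library. In TPMR1 it was 8 without TPM replicate 1, 9 without TPMR1 replicate 1 and 8 without either TPK library, and 2 when only the models compared were fitted.

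The basal stratified keratins were called lower in both models, 4 of 4 in each. Krt5, the type II keratin of basal cells, had 5720 and 1281 CPM in TPM, and 0.0633 and 0.890 CPM in TPMCa, which are 1 and 16 counts. In TPMR1 it had 0 counts in both libraries, at least 24748-fold lower than the TPM mean (adjusted p = 0.0131). The groups did not overlap, and the log2 fold change of Krt5 in TPMCa was -12.79 ± 1.60 (SE, adjusted p = 0.0203). Its type I partner Krt14 was at 5380 and 1539 CPM in TPM and kept a measurable level of 5.57 and 0.946 CPM in TPMCa and 1.24 and 1.11 CPM in TPMR1. The log2 fold changes of Krt14 were -10.05 ± 1.26 (adjusted p = 0.0142) and -11.51 ± 1.33 (adjusted p = 0.00864). Krt17, a keratin of activated basal cells and of hair follicles, had 1133 and 1242 CPM in TPM, 0.633 and 0.0557 CPM in TPMCa and 0 in TPMR1, at least 8393-fold lower there (adjusted p = 0.00522). Krt15, a basal keratin known from epithelial stem cells, had 90.2 and 81.9 CPM in TPM and no more than 3 counts in any TPMCa or TPMR1 library. In TPMCa it was lower by at least 482-fold (adjusted p = 0.00258) and in TPMR1 at least 608-fold (adjusted p = 0.0017).

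The 23 annotated type II keratins lie together on chromosome 15, and Krt18 is the only type I keratin there, next to its partner Krt8, while the other 27 type I keratins lie on chromosome 11. The 100 bases before the start of Krt5 and of Krt18 are shown, as a basal keratin with 0 to 16 counts in TPMCa and TPMR1 and a simple keratin that stayed measurable. Capitals would mark the letters TATAAA of a TATA box, searched on both strands, and neither stretch holds these exact letters. Variants of the box were not searched. The sequences are from RefSeq on build GRCm38.p6, read 5′ to 3′ on the strand of the gene, minus for Krt5 (chr15:101712906-101713005) and plus for Krt18 (chr15:102028116-102028215).
Krt5: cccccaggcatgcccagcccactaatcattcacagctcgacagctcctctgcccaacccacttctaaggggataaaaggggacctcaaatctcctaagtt
Krt18: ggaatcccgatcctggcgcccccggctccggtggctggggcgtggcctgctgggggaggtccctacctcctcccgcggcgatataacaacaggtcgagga
Of these bases, 54% were G or C before Krt5 and 70% before Krt18. The start of Krt18 is at 102028216 in RefSeq and at 102028180 in the GENCODE annotation. The last part of its stretch thus lies within the gene by GENCODE.

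The suprabasal keratins were nearly absent from TPMCa and TPMR1, with the exception of Krt10. Krt13, the mucosal type I keratin, had 2710 and 140 CPM in TPM against 0.443 and 0 CPM in TPMCa (log2 fold change -12.66 ± 2.25, adjusted p = 0.0476). In TPMR1 it had 0 counts, at least 10073-fold lower than the TPM mean, which rested mostly on replicate 1 (adjusted p = 0.0304). Its partner Krt4 had 487 and 57.3 CPM in TPM, 0.887 and 0.167 CPM in TPMCa and 0 in TPMR1, and was called lower in both. Krt6a and Krt6b, the injury-inducible type II keratins, had 4190 and 917 CPM and 1747 and 128 CPM in TPM. Krt6a had at most 1 count in any TPMCa or TPMR1 library and Krt6b had 0. In TPMCa Krt6a was lower by at least 14306-fold (adjusted p = 0.0111) and in TPMR1 at least 18051-fold (adjusted p = 0.00758), and Krt6b at least 5253-fold (adjusted p = 0.0465) and 6628-fold lower (adjusted p = 0.0351). Of the 150-base words of their exons, 15.5% for Krt6a and 18.8% for Krt6b also occur in another keratin, so their counts are partly uncertain. Krt16, their type I partner, had 760 and 42.2 CPM in TPM and was called lower in TPMR1 (adjusted p = 0.0361), with an adjusted p of 0.0505 in TPMCa.

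Krt1 and Krt10 both had lower means in TPMCa and TPMR1 than in TPM, and only Krt10 stayed measurable there. Krt1 had 0 counts in all 4 TPMCa and TPMR1 libraries, whereas Krt10 had 50 and 36 counts in TPMCa and 55 and 27 in TPMR1, between 1.5 and 3.17 CPM. In TPM Krt1 had 917 and 5.72 CPM and Krt10 2942 and 27.7 CPM, so that their means rested on replicate 1, and neither was called in TPMCa (adjusted p = 0.116 and 0.0756) or in TPMR1 (adjusted p = 0.0991 and 0.0582). Their groups did not overlap in either comparison.

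The simple keratins kept the highest levels of any class in TPMCa and TPMR1, and 2 of 6 were called lower in TPMCa and 5 of 6 in TPMR1. Krt8, the type II keratin of simple epithelia, had 849 and 516 CPM in TPM, 26.1 and 4.51 CPM in TPMCa and 1.55 and 5.84 CPM in TPMR1. Its partner Krt18 had 620 and 386 CPM, 14.7 and 4.67 CPM, and 1.24 and 7.5 CPM in the same order. Both were called lower in TPMR1, by -7.54 ± 1.42 (adjusted p = 0.0338) and -6.86 ± 1.29 (adjusted p = 0.0334) on the log2 scale. In TPMCa their log2 fold changes were -5.48 ± 1.29 (adjusted p = 0.0733) and -5.70 ± 1.22 (adjusted p = 0.0588). Krt7, a keratin of glandular and ductal epithelium, had 1991 and 567 CPM in TPM and between 1.32 and 4.5 CPM in TPMCa and TPMR1. It was called lower in both, with log2 fold changes of -8.78 ± 1.11 (adjusted p = 0.0146) and -9.09 ± 1.12 (adjusted p = 0.0114). Krt19, the smallest type I keratin of simple epithelia, had 939 and 381 CPM in TPM, 16.1 and 4.67 CPM in TPMCa and 1.28 and 9.78 CPM in TPMR1, and was called lower in both. Krt23 was called lower in TPMR1, where it had 3 and 0 counts, and Krt20, a keratin of intestinal and urothelial lining, in neither (adjusted p = 0.148 in TPMCa and 0.059 in TPMR1).

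Among the other epithelial keratins, Krt79 and Krt80 were called lower in both models. Krt79, a keratin of the funnel of the hair follicle, had 412 and 702 CPM in TPM and at most 0.834 CPM in TPMCa and TPMR1. Krt80, which has been placed in several epithelia, had 144 and 25.7 CPM in TPM and kept 25 to 74 counts in every TPMCa and TPMR1 library, or 1.39 to 4.12 CPM.

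The 2 models with an added PI3K change were then compared with each other. Of 31 keratins tested, 0 were called in TPMR1 against TPMCa by edgeR, as were 0% of all genes. At an unadjusted p under 0.05 there were 4, all lower in TPMR1, beside 6.27% of all genes lower and 5.49% higher. DESeq2 called 4, and the share of all genes that it called was not counted. Of the 4 by edgeR, Krt5, Krt17 and Krt23 had 0 to 3 counts in TPMR1. In TPMCa they had 1 and 16, 10 and 1, and 43 and 13 counts, so that Krt23 was at least 12.2-fold lower in TPMR1 (adjusted p = 0.376). Krt15 was at or under the floor in both models. Krt83, a hair shaft keratin, went the other way with 2 and 5 counts in TPMR1 and 0 in TPMCa (adjusted p = 0.443). Krt79 likewise had 1 and 15 counts in TPMR1 and 0 and 4 in TPMCa, which overlap. Krt8 was at 26.1 and 4.51 CPM in TPMCa and 1.55 and 5.84 CPM in TPMR1, and these overlapped (log2 fold change -2.06 ± 1.13, adjusted p = 0.51).

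Of the 52 keratins, 22 had 0 counts in all 4 TPMCa and TPMR1 libraries and 33 had 3 or fewer in each. The 8 that exceeded 3 counts in all 4 were Krt7, Krt8, Krt18, Krt19, Krt20, Krt10, Krt14 and Krt80. The summed level of the simple keratins was 65.8 and 17.1 CPM in TPMCa and 5.73 and 26.8 CPM in TPMR1. Divided by the summed level of the 8 other epithelial genes in the same library, that was 2.16 and 1.42 in TPMCa and 1.78 and 7.43 in TPMR1, against 1.68 and 0.799 in TPM and 0.874 and 1.38 in TPK. The ratio in TPMR1 replicate 2 stood above those of all other libraries. The mesothelial genes summed to 69.1 CPM in that library, against 72.9 CPM in TPMR1 replicate 1 and 85.0 CPM in TPK replicate 1. Their part was not tested.

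Against the mean of TPMCa and TPMR1, nearly all tested keratins were called higher in TPM and in TPK. In TPM 27 of 31 were called higher, and 0 lower, beside 7.44% of all genes called higher and 1.45% lower, the exceptions being Krt12 (adjusted p = 0.0503), Krt84 (0.0522), Krt36 (0.132) and Krt76 (0.407). In TPK 30 of 31 were called higher, and 0 lower, beside 10.3% of all genes called higher and 4.06% lower, the exception being Krt1 (adjusted p = 0.0861). These comparisons share the TPMCa and TPMR1 libraries with each other. Without 1 library the counts went down to 15 in TPM, without TPM replicate 1 or TPMCa replicate 2, and 17 without TPMCa replicate 1. They went down to 17 in TPK, without TPMCa replicate 1 or either TPK library, and 18 without TPMCa replicate 2.

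The make-up of the keratins was compared after dividing the CPM of each gene by the length of its exons, which allows levels of different genes to be set side by side. In TPM the highest level was that of Krt14, with 3060 and 876 CPM per kilobase of exon, and in TPK that of Krt13, with 4463 and 3879. Basal stratified keratins held 51.6% ± 11.01 (SD, n = 2) of the summed keratin level in TPM and 42.8% ± 1.51 in TPK. Suprabasal keratins held 43.2 and 15.01% in the TPM libraries and 52.4 and 43.3% in the TPK libraries. Simple keratins held 12.0 and 21.6% in TPM and 4.88 and 12.1% in TPK, so that the models overlapped in this share.

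In TPMCa and TPMR1 the class with the largest share was that of the simple keratins. Simple keratins held 83.8 and 74.4% of the keratin level per kilobase in TPMCa and 55.4 and 86.3% in TPMR1, and all 4 libraries lay above every TPM and TPK library. As a share of keratin counts, with no division by length, simple keratins held 1039 of 1274 counts (81.6%, 95% Wilson interval 79.3 to 83.6) and 307 of 478 (64.2%, 59.8 to 68.4) in TPMCa. They held 148 of 294 (50.3%, 44.7 to 56.0) and 483 of 589 (82.0%, 78.7 to 84.9) in TPMR1. These shares rest on few counts and the intervals cover counting error only.

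**Figure D2:**
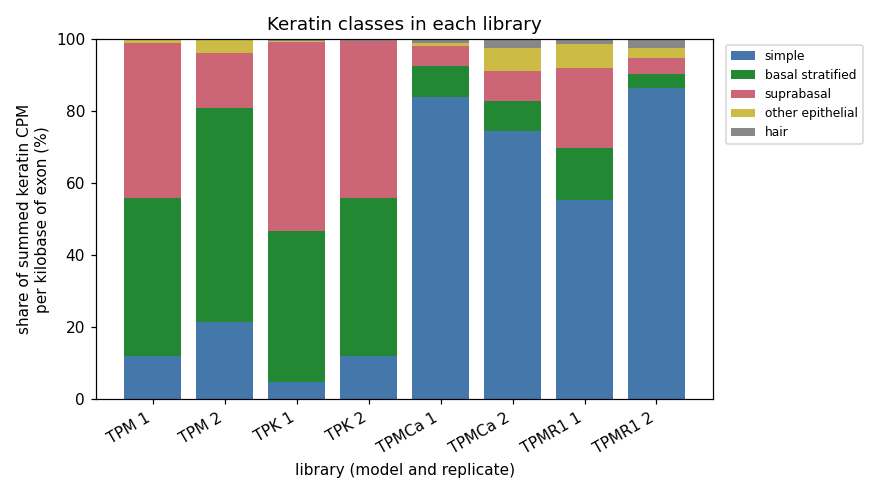
Each bar splits the summed keratin level of 1 library, in CPM per kilobase of exon, into the 5 classes (vertical axis, share in percent). Simple keratins fill 4.88 to 21.6% of the TPM and TPK bars and 55.4 to 86.3% of the TPMCa and TPMR1 bars, whose totals are far smaller.

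Type I keratins were above type II keratins in level per kilobase in every library. The ratio was 1.29 and 1.51 in TPM, 1.35 and 1.83 in TPK, 1.79 and 2.26 in TPMCa and 2.68 and 2.87 in TPMR1. By CPM alone the order turned in TPM, where the mean ratio was 0.908.

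Of the known partners, Krt8 with Krt18 and Krt5 with Krt14 stayed close to each other where both were abundant, and the other pairs did not. The level per kilobase of Krt18 was 0.995 and 1.02 times that of Krt8 in TPM, 1.88 and 1.53 times in TPK, 0.767 and 1.41 times in TPMCa and 1.09 and 1.75 times in TPMR1. That of Krt14 was 1.18 and 1.5 times that of Krt5 in TPM and 1.11 and 0.989 times in TPK. The pair came apart in TPMR1, with 32 and 20 counts of Krt14 and 0 of Krt5, and in TPMCa replicate 1, with 88 and 1. Krt10 exceeded Krt1 in every library, by 6.70 and 10.1 times in TPM and 59.8 and 42.8 times in TPK. Krt13 exceeded Krt4 by 6.52 and 2.86 times in TPM and by 3.84 and 9.79 times in TPK. Krt16 was 0.280 and 0.0710 times Krt6a in TPM and 0.164 and 0.0785 times in TPK.

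The replicates of TPM differed widely, and by class. Of 30 keratins with over 3 counts in both TPM libraries, 26 were higher in replicate 1 and 8 differed by more than 10-fold. Suprabasal keratins differed most, with a median of 18.0-fold between replicates over 9 genes, all higher in replicate 1. Krt1 differed by 160-fold, Krt10 by 106-fold and Krt12, a keratin of cornea, by 70.2-fold. Krt17, Krt15 and Krt33b differed by 1.10-, 1.10- and 1.05-fold, and Krt8 and Krt18 by 1.64- and 1.60-fold. Genes of the cornified layer followed the same library: Hrnr had 82.8 and 2.0 CPM, Rptn 267 and 12.5 CPM and Evpl, the cornified envelope protein envoplakin, 562 and 52.5 CPM. The 8 other epithelial genes summed to 2716 and 2357 CPM in the same libraries. With 2 libraries, neither can be called the typical one.

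In TPK the replicates lay closer, with a median of 2.13-fold over 31 keratins, of which 2 differed by more than 10-fold. These were Krt76, a suprabasal keratin of hard palate and other oral mucosa, by 38.8-fold, and Krt12, by 16.01-fold, both higher in replicate 1. All 10 suprabasal keratins were higher in replicate 1, while Krt8 and Krt18 were 5.46- and 4.43-fold higher in replicate 2.

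**Figure D3:**
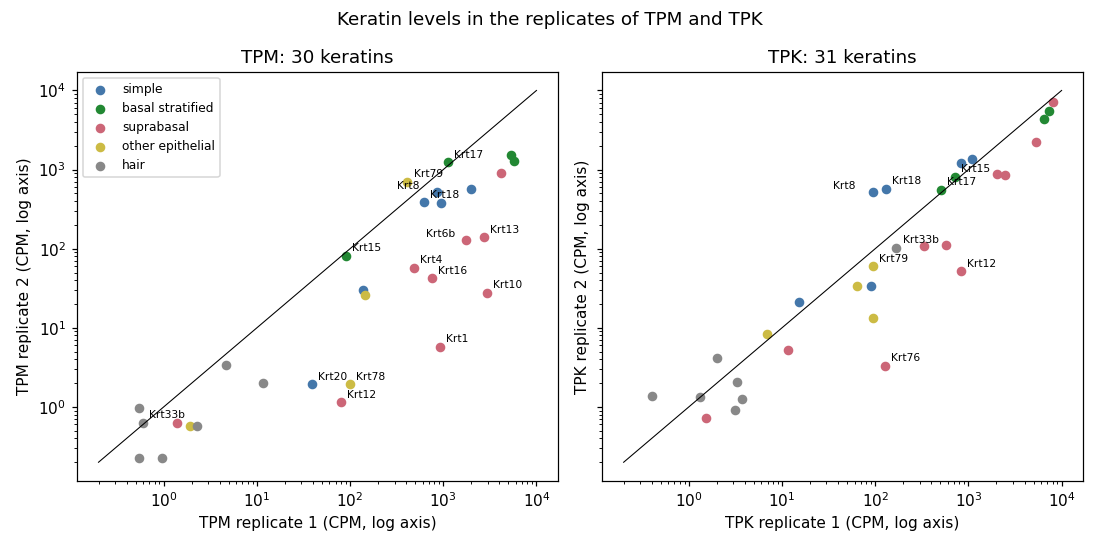
Each point is a keratin with over 3 counts in both libraries of TPM (left) or TPK (right), placed by its CPM in replicate 1 (horizontal, log axis) and replicate 2 (vertical, log axis), with colors for the classes and a line of equal values. In TPM the suprabasal keratins lie below the line, Krt1 by 160-fold, while Krt15, Krt17 and Krt33b lie on it.

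TPK and TPM, the models rich in keratin, were compared directly. Of 31 keratins tested, 0 were called by edgeR, as were 0% of all 15875 genes, and 5 had an unadjusted p under 0.05, namely Krt33b, Krt15, Krt76, Krt42 and Krt79. Of all genes, 3.37% were higher and 3.8% lower at that unadjusted p. DESeq2 called 3, Krt33b, Krt15 and Krt76, and the share of all genes that it called was not counted. Both TPK libraries lay above both TPM libraries for 9 keratins and below for 3, beside 24.4 and 23.5% of all genes.

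Krt33b, a type I keratin of the hair shaft cortex, had the lowest p of the keratins between these models. It had 10 and 11 counts in TPM, or 0.602 and 0.629 CPM, and 2954 and 1547 counts in TPK, or 169 and 102 CPM. It had 0 counts in all 4 TPMCa and TPMR1 libraries. The TPK libraries thus lay far above the others, with a log2 fold change of 7.76 ± 0.51 over TPM, and its p in edgeR, 3.4e-05, was the lowest of the 15875 genes, with an adjusted p of 0.536. DESeq2 gave an adjusted p of 2.5e-32 for it. None of the 150-base words of its exons occurs in another keratin.

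The neighbors of Krt33b did not share its level. Along chromosome 11 it lies between Krt33a and Krt34, followed by Krt31, all on the minus strand and all hair shaft keratins of type I. Krt33a had 4 and 2 counts in TPK, Krt34 13 and 2, and Krt31 55 and 14. Per kilobase of exon, Krt33b stood at 85.6 in TPK on average, against 1.29 for Krt31 and 0.272 for Krt34. Of the 24 hair keratins, Krt33b held 2954 of 3260 counts in TPK replicate 1 and 1547 of 1731 in replicate 2. The type II keratins of the hair shaft were low in TPK, Krt83 with 35 and 63 counts, Krt84 with 23 and 20, Krt85 with 7 and 21 and Krt86 with 12 and 3. Krt83 had 11.6 and 2.0 CPM in TPM against 2.0 and 4.15 CPM in TPK, and Krt75, a keratin of the companion layer of the follicle, 4.64 and 3.43 CPM against 3.71 and 1.25 CPM, and both overlapped. Krt36 and Krt84 lay higher in both TPK libraries, with 3.31 and 2.04 CPM and 1.31 and 1.32 CPM, against 1.38 and 0.114 CPM and 0.963 and 0.229 CPM in TPM. Genes for the keratin-associated proteins of hair, of which the table lists 53, summed to 225 and 16 counts in TPK and 86 and 7 in TPM. Hoxc13, a regulator of hair shaft keratins, had 0.114 and 0 CPM in TPK and 0 and 0.0572 CPM in TPM, and Foxn1, another regulator in hair, 16 and 13.2 CPM in TPK and 19.7 and 9.61 CPM in TPM. Dlx3 had 0.686 and 0.0659 CPM in TPK against 6.92 and 1.37 CPM in TPM, and Lef1 0.514 and 0.330 CPM against 0.783 and 2.23 CPM. Both lay lower in both TPK libraries, while Msx2, with 4.69 and 28.7 CPM against 14.2 and 2.80 CPM, overlapped. Of the 4 hair shaft regulators tested, 0 were called in TPK against TPM by edgeR, as were 0% of all genes. Foxn1 alone was called lower than in TPM in TPMCa and in TPMR1, beside 3.02 and 4.5% of all genes.

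The 100 bases before the starts of Krt33b and 3 hair keratins that lie near it on the chromosome are shown because their levels differed so widely, with the letters TATAAA in capitals. All are on the minus strand of chromosome 11 in GRCm38.p6, at chr11:100029869-100029968 for Krt33b, chr11:100041555-100041654 for Krt34, chr11:100050552-100050651 for Krt31 and chr11:100105627-100105726 for Krt36.
Krt33b: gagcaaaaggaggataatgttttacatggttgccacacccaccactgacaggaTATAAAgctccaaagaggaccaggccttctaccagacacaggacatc
Krt34: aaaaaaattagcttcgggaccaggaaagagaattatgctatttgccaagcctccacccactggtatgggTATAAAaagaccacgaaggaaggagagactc
Krt31: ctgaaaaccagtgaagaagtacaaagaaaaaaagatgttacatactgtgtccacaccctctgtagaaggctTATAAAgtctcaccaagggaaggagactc
Krt36: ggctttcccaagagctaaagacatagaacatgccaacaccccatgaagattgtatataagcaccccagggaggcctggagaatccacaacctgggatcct
The first letter of the match lies at -47 for Krt33b, -31 for Krt34 and -29 for Krt31, counted back from the RefSeq start, and no match lies in the stretch before Krt36. The match is therefore shared by a keratin that was high in TPK and by neighbors that were low. RefSeq promoters of 250 bases before and 50 after the start were found for 35 of the 52 keratins, 1 of them with a pair of starts. The letters TATAAA, on either strand, were in 13 of 17 promoters of hair keratins (76.5%) and in 19 of 36 keratin promoters (52.8%), against 13.6% of all 32851 promoters in the table. The letters TGANTCA of an AP-1 site were in 2 of 36 against 7.81%, and the letters CCGCCC of a GC box in 2 of 36 against 35.7%. These searched motifs do not overlap one another in their letters, and a match is a description of sequence.

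**Figure D4:**
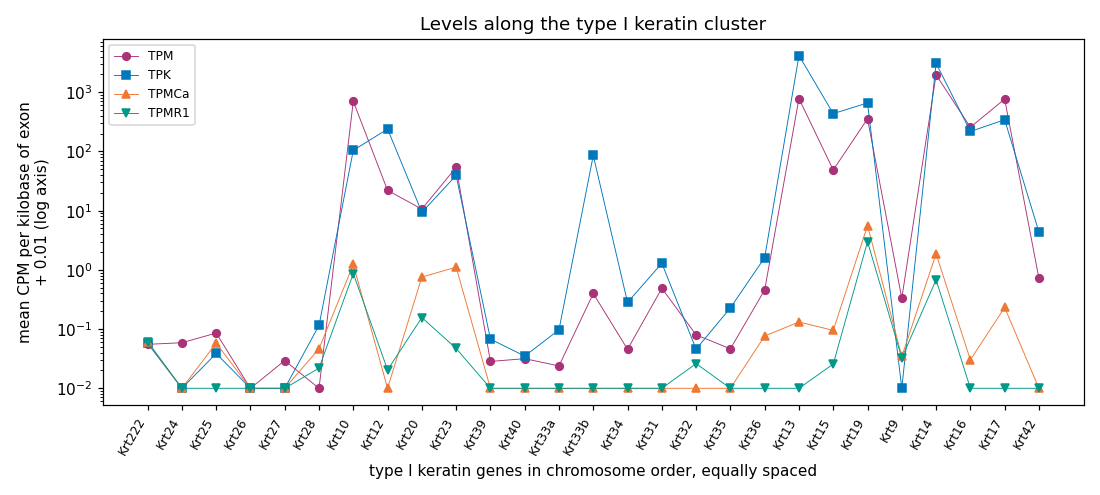
The 27 type I keratin genes of chromosome 11 are placed in chromosome order at equal spacing (horizontal), with their mean CPM per kilobase of exon plus 0.01 (vertical, log axis) for each model; lines join the points of a model only to guide the eye. Krt33b stands at 85.6 in TPK between neighbors under 2, whereas Krt13 to Krt19 and Krt14 to Krt17 are high in both TPM and TPK.

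Krt15 was higher by value in TPK than in TPM with little spread between replicates. It had 90.2 and 81.9 CPM in TPM and 725 and 814 CPM in TPK, which do not overlap. Its log2 fold change was 3.16 ± 0.40, its unadjusted p of 0.00012 ranked 2 of all genes, and its adjusted p was 0.653 in edgeR and 3.4e-17 in DESeq2. Krt17, of the same basal class, went the other way, with 1133 and 1242 CPM in TPM and 507 and 558 CPM in TPK (log2 fold change -1.16 ± 0.63, adjusted p = 0.741). Krt5 and Krt14 overlapped between the models, with log2 fold changes of 0.88 ± 0.97 (adjusted p = 0.875) and 0.65 ± 0.85 (adjusted p = 0.897).

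The mucosal keratins had higher means in TPK, and none was called by edgeR. Krt13 had 8128 and 7063 CPM in TPK against 2710 and 140 CPM in TPM, and Krt4 2481 and 845 CPM against 487 and 57.3 CPM. Neither pair of groups overlapped, as held for 24.4% of all genes in this direction. The log2 fold changes were 2.41 ± 1.42 (adjusted p = 0.753) and 2.61 ± 1.17 (adjusted p = 0.705), and the TPM replicates of Krt13 differed by 19.4-fold. Krt76 had 2238 and 50 counts in TPK against 5 and 1 in TPM (log2 fold change 8.48 ± 2.08, adjusted p = 0.653), and its value fell to 4.14 without TPK replicate 1. Krt12 had 834 and 52.1 CPM in TPK against 80.3 and 1.14 CPM in TPM, which overlap (3.44 ± 1.97, adjusted p = 0.746).

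Krt1 and Krt10, of epidermal differentiation, had lower means in TPK, through 1 library of TPM. Krt10 had 334 and 108 CPM in TPK, between the 2942 and 27.7 CPM of TPM, and Krt1 11.7 and 5.27 CPM against 917 and 5.72 CPM. Their log2 fold changes of -2.75 ± 1.63 (adjusted p = 0.75) and -5.76 ± 2.28 (adjusted p = 0.696) turned to 2.98 and 0.55 without TPM replicate 1. Krt16, with 569 and 112 CPM in TPK and 760 and 42.2 CPM in TPM, turned from -0.24 to 3.0 without that library. Krt6a and Krt6b overlapped between the models (log2 fold changes 0.57 ± 0.79 and 0.64 ± 1.20, adjusted p = 0.904 and 0.941).

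Of the simple keratins, Krt19 lay higher and Krt8 lower in both TPK libraries. Krt19 had 1095 and 1353 CPM in TPK against 939 and 381 CPM in TPM (log2 fold change 0.89 ± 0.96, adjusted p = 0.869). Krt8 had 94.3 and 515 CPM in TPK against 849 and 516 CPM in TPM, where the nearest libraries nearly met (-1.16 ± 1.08, adjusted p = 0.844). Krt18 had 130 and 576 CPM in TPK and Krt7 826 and 1199 CPM, and both overlapped TPM (adjusted p = 0.943 and 0.952).

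Krt79 had a lower mean in TPK than in TPM and Krt42 a higher mean, and neither was called by edgeR. Krt79 had 95.4 and 59.99 CPM in TPK against 412 and 702 CPM in TPM (log2 fold change -2.84 ± 0.93, adjusted p = 0.668). Krt42, a type I keratin next to Krt17 on chromosome 11, had 6.97 and 8.37 CPM in TPK against 1.93 and 0.572 CPM in TPM (2.61 ± 0.91, adjusted p = 0.684). Neither pair of groups overlapped, where 23.5% of all genes lay lower and 24.4% higher without overlap. Krt78, with 95.4 and 13.4 CPM in TPK and 98.9 and 1.94 CPM in TPM, and Krt80, with 63.7 and 33.3 CPM against 144 and 25.7 CPM, overlapped.

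**Figure D5:**
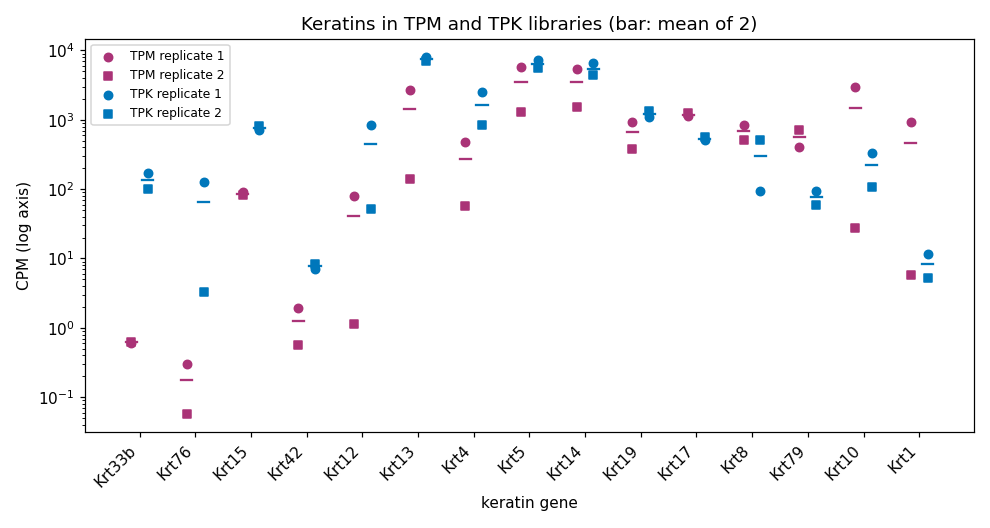
Points give the CPM (log axis) of 15 keratins in the 2 TPM and 2 TPK libraries, with circles for replicate 1, squares for replicate 2 and short bars for the mean of each model. Krt33b, Krt15, Krt42, Krt13 and Krt4 lie higher in both TPK libraries and Krt17 and Krt79 lower, while the TPM replicates of Krt10 lie on either side of TPK and TPM replicate 2 of Krt1 lies between the TPK libraries.

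Genes that tie keratins to cell junctions and to each other were examined next. Of 12 such genes tested, 5 were called lower in TPMCa than in TPM and 4 in TPMR1, with 0 higher, beside 3.02 and 4.5% of all genes called lower. Against the mean of TPMCa and TPMR1, 7 were called higher in TPM and 7 in TPK, beside 7.44 and 10.3% of all genes. With genes of 3 counts or fewer set to their bound, their median log2 fold change from TPM was -6.15 in TPMCa and -4.60 in TPMR1, against -0.01 and 0.03 for all genes tested. Dsp, which anchors keratins at desmosomes, had 3647 and 973 CPM in TPM, 1458 and 1103 CPM in TPK and between 0.445 and 2.60 CPM in TPMCa and TPMR1 (log2 fold change from TPM -10.57 ± 1.23, adjusted p = 0.0118, and -11.71 ± 1.28, adjusted p = 0.00763). Fam83h, which organizes keratin filaments, had 233 and 152 CPM in TPM and 1.61 to 5.5 CPM in TPMCa and TPMR1. Plec, which links several filament types and is not restricted to epithelium, had 708 and 451 CPM in TPM and 266 to 393 CPM in TPMCa and TPMR1. Dst, a linker that is also found outside epithelium, had log2 fold changes from TPM of 0.57 ± 0.41 in TPMCa and -0.03 ± 0.41 in TPMR1 (adjusted p = 0.443 and 0.976), and Tchp, which binds keratin filaments, 0.33 ± 0.32 and -0.28 ± 0.32 (adjusted p = 0.575 and 0.662). Ppl, which links keratins to the cell envelope, had 215 and 39.0 CPM in TPMR1 against 1099 and 167 CPM in TPM, and these overlapped.

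The 14 tested intermediate filament genes that are not keratins had 0 calls by edgeR in TPMCa or TPMR1 against TPM. Vim, the filament protein of mesenchymal cells, had 344 and 176 CPM in TPM, 2592 and 2287 CPM in TPMCa, 261 and 1692 CPM in TPMR1 and 451 and 206 CPM in TPK. Its log2 fold change from TPM was 3.23 ± 0.92 in TPMCa (adjusted p = 0.11) and 1.91 ± 0.87 in TPMR1 (adjusted p = 0.248). Prph, a filament protein of peripheral neurons, had 0.783 and 0.629 CPM in TPM, 31.3 and 50.03 CPM in TPMCa, 2.48 and 113 CPM in TPMR1 and 0.171 and 0 CPM in TPK. Of the 14, it alone was called lower in TPK than in the mean of TPMCa and TPMR1 (adjusted p = 0.0336), and Bfsp1, a filament protein of the lens, alone was called higher (adjusted p = 0.049).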

How the data were processed

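The sample labels gave the model and replicate of each of the 8 libraries. The authors sequenced read pairs of 150 bases, received them trimmed, and used STAR for the alignment to mm10; the counter and its annotation are not given in the sources used here. The deposited counts are whole numbers of reads per gene symbol and were used for every result. The deposited signal values, counts that the authors divided by 1 DESeq2 size factor per library, were used only to read those factors.

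Genes were kept by filterByExpr of edgeR 4.0.16 (R 4.3.3, limma 3.58.1), scaled by TMM and fitted in 1 quasi-likelihood model with a term for the model over all 8 libraries, with a common dispersion of 0.269. The script was tested on simulated counts. DESeq2 1.42.0, other scalings and filters, a replicate block and leaving out each library were alternatives. Exon lengths came from GENCODE on GRCm38; Krt85 had no entry and was left out of levels per kilobase. Intervals are 95% Wilson intervals from statsmodels 0.14.6.

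Keratins, classes and other lists were chosen with earlier results of these data known. The text names up to 6 members of highest mean CPM per class, those called between TPK and TPM or between TPMR1 and TPMCa, those moving against their class, and the known pairs; the keratin-associated proteins were added after their values were seen. Some engineered genes are not reported here.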

Additional observations from a re-analysis of the deposited data

How the results depend on the processing

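No called keratin whose fold change is given above turned direction under any setting tried. The number of keratins called with the Wald test of DESeq2 was 28 in TPMCa against TPM and 29 in TPMR1 against TPM. It was 3 in TPK against TPM and 4 in TPMR1 against TPMCa. With only the models compared in edgeR it was 2 in TPMR1 against TPM. The shares of all genes called by DESeq2 and under the other settings were not counted, so the numbers of keratins have no background beside them. Leaving out 1 library at a time gave 2 to 19 calls in TPMCa against TPM, 8 to 17 in TPMR1 against TPM, 15 to 25 in TPM and 17 to 28 in TPK against the mean of TPMCa and TPMR1, and 0 in both comparisons without a call. The cause was not tested. Where that left 1 library in a model, it was assumed to vary like the others.

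Libraries were not treated as paired by replicate number. Deviations of same-numbered libraries correlated between -0.0802 and 0.0133 across models, and whether they shared a batch was not tested. With a replicate block the calls were 14 and 15 in TPMCa and TPMR1 against TPM and 22 and 26 in TPM and TPK against the mean, and 0 elsewhere, and Krt16 turned to 0.49 in TPK against TPM. In that comparison the log2 fold changes ranged, over libraries left out, from -6.75 to 0.55 for Krt1, -3.81 to 2.98 for Krt10, -1.86 to 3.0 for Krt16, -1.95 to 0.19 for Krt18, -0.97 to 0.83 for Krt7, -0.23 to 2.03 for Krt6a and -0.25 to 3.5 for Krt6b. None of these was called.

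By CPM in place of CPM per kilobase, basal keratins held 7.77% in TPMCa and 41.3% in TPK, hair keratins 0.463% in TPK, and other epithelial keratins 5.56% in TPM, 10.5% in TPMCa, 12.4% in TPMR1 and 0.565% in TPK. The ratio of type I to type II was then 0.908 in TPM, 1.30 in TPMCa, 1.52 in TPMR1 and 1.19 in TPK. By the longest transcript, basal keratins held 8.19% in TPMCa, other epithelial keratins 0.375% in TPK, and the ratio was 2.47 in TPMR1.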
